A study of Mus musculus with 8 samples.

Results

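The control samples of this series were pools of GFP-positive cells obtained by cell sorting. The cells came from kidney rudiments dissected from E11.5 mouse embryos (NMRI strain) with the genotype Tbx18(GFP/+), in which 1 allele of Tbx18 carries GFP and the other is intact. They make up 3 of the 8 arrays of the series, and were taken by their genotype label. The other 5 arrays hold cells of other Tbx18 genotypes and are not described here. For each control array about 100000 cells from males and females were combined over several rounds of sorting. The labels do not say whether the 3 pools came from separate litters, so the spread between them may be partly technical. The sorted cells are heterozygous for Tbx18, and because the reporter is a stable protein they can include cells that have recently switched Tbx18 off. Pools 1 and 2 were amplified from 20 ng of RNA and shared a slide and a scan day, and pool 3 was amplified from 10 ng and lay on another slide with another scan day, so these 3 things cannot be told apart.

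At this stage the ureteric bud has grown into the metanephric mesenchyme and has begun to branch. The T-box transcription factor TBX18 marks the loose mesenchyme around the bud stalk, which later forms the smooth muscle and connective tissue of the ureter. Neighbouring mesenchyme gives rise to the stroma of the kidney, which expresses Foxd1 and makes retinoic acid, and to the nephron progenitors, which express Six2, Wt1, Osr1 and Gdnf. The bud itself is an epithelium that expresses Ret, Wnt11, Gata3 and Cdh1.

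A level is given below as log2 of the background-corrected signal minus the array's 75th percentile, so a gene at 0 was as bright as the probe that 25% of probes exceed, and 1 unit is a 2-fold difference in signal. Levels in the 3 pools are given in the order pool 1, pool 2, pool 3, and ± is the SD over these 3 pools. A gene is represented by its brightest probe. A gene was counted as detected when that probe was flagged well above background on all 3 arrays, which held for 16494 of 27299 genes (60.4%), while 8893 genes (32.6%) were above background on no array. No group is compared with another here, so no test was made and counts of detected genes are read against the 60.4% of all genes. That share also counts genes with clone-like or predicted names, and 20046 of the 27299 genes have 1 probe. The lists below hold known genes, so a list and all genes are not fully alike. Probes differ in how strongly they bind their transcript. Among 3867 genes with at least 2 detected probes, free of the sequence features described below, the brightest and dimmest probe of a gene differed by a median of 1.80, and by more than 1 unit in 68.5% of genes. The order of genes is therefore an order of probe signal, and differences of 1 or 2 units between genes do not order their transcripts. In a bulk pool, fewer cells of a type and less RNA per cell cannot be told apart.

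Many of the brightest and of the most variable probes had 1 of 2 sequence features, so these are shown first. The first feature is a run of 16 bases that is found in 10 or more of 32544 RefSeq promoter sequences (assembly GRCm38.p6, either strand), used here as a sign of repetitive sequence. The windows below are 30 bases of the deposited probe sequences, 5′ to 3′, with the shared run in capitals. They belong to 6 genes that were bright on the arrays and are shown because the order of genes below turns on such probes.
Creb5: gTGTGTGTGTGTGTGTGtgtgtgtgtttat
Sema4c: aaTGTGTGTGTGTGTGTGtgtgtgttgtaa
Epha5: tcgaaatTGTGTGTGTGTGTGTGtgtgcgt
Fgf23: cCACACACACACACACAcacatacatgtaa
Elk1: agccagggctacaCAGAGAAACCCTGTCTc
Glrx2: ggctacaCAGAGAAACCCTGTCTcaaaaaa
The first 4 hold a repeat of TG or, read from the other strand, CA, and their runs occur in 147 promoter sequences. Elk1 and Glrx2, which lie on different chromosomes, share the same 16 bases, found in 42 promoter sequences. In the mm9 coordinates of the files these probes lie at chr6:53645678-53645737 (plus strand, Creb5), chr1:36605998-36606057 (minus, Sema4c), chr5:84487348-84487407 (minus, Epha5), chr6:127030758-127030817 (plus, Fgf23), chrX:20510521-20510580 (minus, Elk1) and chr1:145596708-145596767 (plus, Glrx2).

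The second feature is a stretch of 12 bases with at least 10 A. The windows below belong to 4 probes that differed most between the pools or whose gene has another probe to set beside them, with the A-rich stretch in capitals.
Mypn: gatttaaagAGAAAACAAAAAacaaaacgg
Mycl: ttgtataagAAAAACAAAAAAcaaaaaccc
Tcf7l2: aagactgatttAAAAAACAAAAAgaaaaaa
Esrrg: cgtgaatggACAAAACAAAAAattaaactg
These probes lie at chr10:62578991-62579050 (minus, Mypn), chr4:122679535-122679594 (plus, Mycl), chr19:56006638-56006697 (plus, Tcf7l2) and chr1:190038384-190038443 (plus, Esrrg). Of all 39429 probes, 646 (1.64%) had a repeat run, 625 (1.59%) were A-rich and 56 had both.

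Repeat runs were concentrated among the brightest probes: 15 of the 100 probes of highest mean level had one, against 2.43% of the 22778 probes detected on all 3 arrays. In 267 genes a probe with a repeat run could be set beside a probe of the same gene with neither feature. The repeat-bearing probe was the brighter one in 203 of these genes. Over all 267 genes it was higher by a median of 3.19, with dim probes taken at their measured signal, and in 60 genes the other probe was above background on no array. Elk1, an ETS factor that mediates the response to growth factors, read 8.50, 7.96 and 7.62 with the probe shown above but -5.21, -2.71 and -4.85 with its other probe. Fgf23, a hormone of phosphate balance, read 3.89, 3.41 and 2.93 with the probe shown and was at background with the other, at -7.57, -8.39 and -8.45. For Epha5, an ephrin receptor gene, all 3 probes were detected in every pool. Their means were 3.15 with the probe shown and -3.11 and -3.53 with the others. Nothing in these arrays says which transcript bound to a repeat-bearing probe. Below, such genes are named as such, and the totals for markers, transcription factors, ligands, receptors and antagonists are also given without probes of either feature, for which 16043 of 26767 genes (59.9%) were detected.

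**Figure D1:**
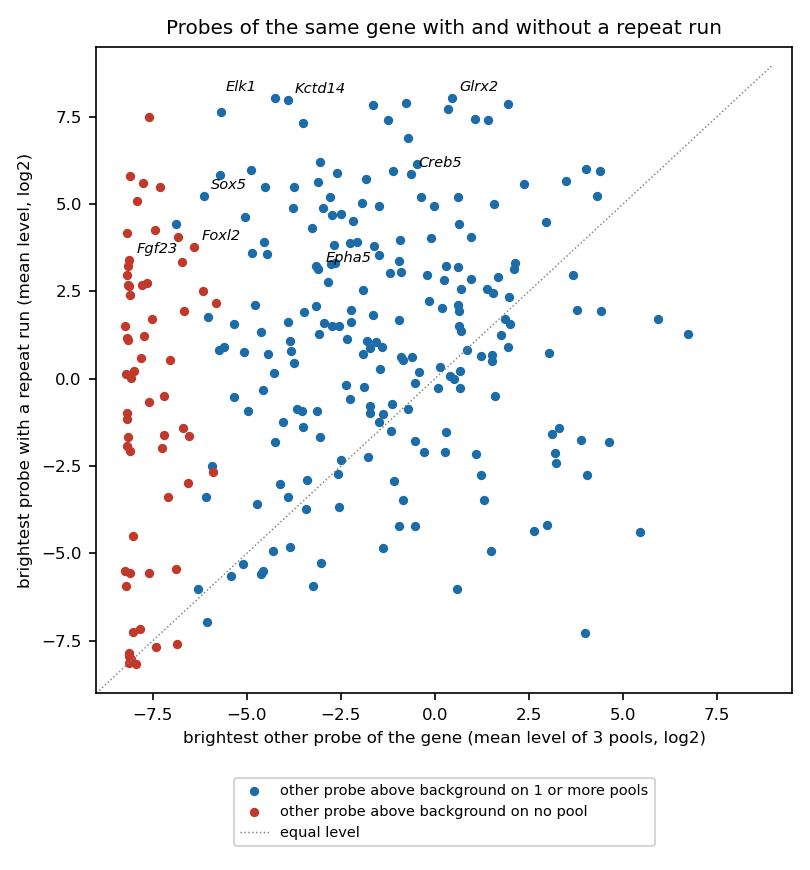
Mean level over the 3 control pools (log2) of the brightest probe with a repeat run (vertical axis) against the brightest probe of the same gene with neither sequence feature (horizontal axis), 1 point per gene. Of 267 genes, 203 lie above the line of equal level, and 60, in red, have another probe that was above background on no array.

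Tbx18, whose activity defines the sort, was detected in all 3 pools at -0.02, 1.2 and 1.04 (0.74 ± 0.66). Pool 1 was about 1 unit below the other pools, which were close to each other. Its only probe lies at chr9:87599514-87599573 on the minus strand and has neither feature. The level stood at percentile 77.6 of all genes, well below many other transcription factors of the pool. The reporter itself was not analysed here.

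The 25 brightest named genes spanned a narrow range, from 7.66 to 8.13. They included 5 genes of ribosomal proteins, 3 genes of the mitochondrial genome and 4 genes of the H2A histone family, and 8 of the 25 had a repeat-bearing probe: Exosc2, Glrx2, Elk1, Kctd14, Milr1, Med16, Ttc38 and Synrg. The brightest of these, Exosc2, read 8.50, 8.15 and 7.75, and it has no other probe. For the other 7 the brightest probe with neither feature read between -4.26 (Elk1) and 1.93 (Med16). Without probes of either feature, the order began with COX2, a mitochondrially encoded subunit of cytochrome oxidase (8.07 ± 0.22), followed by the translationally controlled protein gene Tpt1 (7.96 ± 0.21), Slc10a1 (7.89 ± 0.46), Rpl41 of the large ribosomal subunit (7.88 ± 0.30), the peptidyl-prolyl isomerase gene Ppia (7.88 ± 0.28) and the ubiquitin gene Ubb (7.85 ± 0.23). Slc10a1 encodes a bile acid transporter of the liver, and its place rests on 1 of its 2 probes. The other was at background in every pool (-7.03, -7.54 and -6.91). The bright probe has a run found in 8 promoter sequences, just below the cut of 10 for a repeat run. The place of Slc10a1 in this order therefore also depends on that cut. Of the 100 brightest genes in this order, 56 encoded ribosomal proteins, 7 were mitochondrially encoded and 9 were histone genes. The histone genes of one family are near-identical copies, so that their signals cannot be assigned to single genes.

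Of 25 genes of the cell cycle, 24 were detected, with a median level of 3.58 against -3.54 for all genes, and 18 stood in the top 10% of genes. Cdk4, the kinase of the G1 phase, read 5.93, 5.98 and 5.89, almost the same in every pool. Mcm7 of the replicative helicase (5.08 ± 0.47), Rrm2, which makes deoxyribonucleotides (4.96 ± 0.42), the mitotic regulator Cdc20 (4.85 ± 0.48) and the proliferation marker Mki67 (3.66 ± 0.55) followed. Ccne2, 1 of 2 genes of cyclin E, was the only member at background, while its partner Ccne1 stood at 3.36 ± 0.50. Imprinted genes of fetal growth were likewise bright: 18 of 20 were detected, led by H19 (6.33 ± 0.27), Mest (5.50 ± 0.32), the cell cycle inhibitor Cdkn1c (5.45 ± 0.46) and Peg3 (4.78 ± 0.51). Phlda2 and Peg10, known chiefly from placenta, were not detected on all arrays (-5.68 ± 1.18 and -5.72 ± 1.06).

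The identity of the pool was described with 18 lists of cell type markers, together 222 genes, of which 146 were detected. Without probes of either feature 141 of 217 were. The lists of renal stroma (17 of 17 detected, median 3.27) and general mesenchyme (15 of 15, median 2.26) were the brightest, and ureteric mesenchyme came next (15 of 16, median 0.88). In the top 10% of genes stood 11 members of the stroma list, 7 of general mesenchyme and 5 of ureteric mesenchyme. The lists share genes: Aldh1a2 and Tcf21 stand in both the stroma and the ureteric list, and Col3a1 and Pdgfra in both stroma and general mesenchyme. Aldh1a2, which makes retinoic acid, read 6.64, 6.43 and 5.95. Col3a1, a fibrillar collagen of loose connective tissue, read 6.05, 5.99 and 5.75, and Col1a2 6.30, 5.88 and 6.31. The stromal factors Meis1 (5.88, 5.29 and 5.21) and Foxd1 (2.75, 3.43 and 3.62) were high in every pool. Tcf21, a factor of early renal and urogenital mesenchyme, read 4.07, 4.54 and 4.50, and Snai2, a factor of mesenchymal state, was 4.09 in each pool. The lowest member of the stroma list was the guidance factor gene Ntn1, detected at -4.32 ± 0.48.

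Within the ureteric mesenchyme list, the growth factor gene Bmp4 (5.45 ± 0.49), the WNT antagonist gene Sfrp2 (4.08 ± 0.43) and the hedgehog effector gene Gli1 (2.30 ± 0.28) were bright, while other genes that the ureter uses were dim. Ptch1, the receptor and target of hedgehog signals, stood at -4.24 ± 1.09, Foxf1, a hedgehog target of visceral mesenchyme, at -2.04 ± 0.48, and the WNT target Axin2 at -5.22 ± 1.70 with detection in 2 pools. Sox9, a factor of ureteric mesenchyme and cartilage, read -1.75, 0.49 and 1.47, with an SD of 1.65 that was among the 10 largest of detected genes with neither feature.

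**Figure D2:**
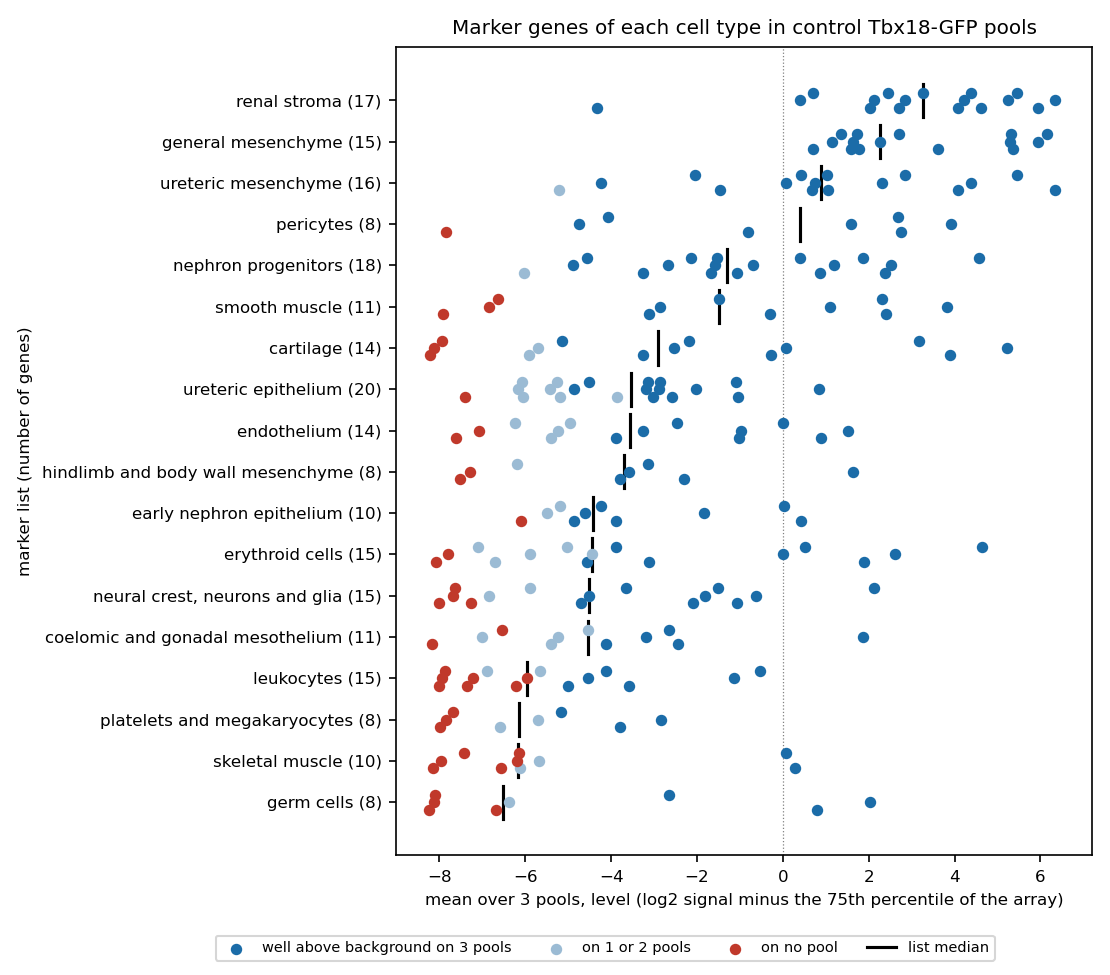
Mean level over the 3 control pools of each marker gene (points), by cell type list (rows, number of genes in brackets), coloured by the number of pools in which the gene was well above background; black bars are list medians. All members of renal stroma and general mesenchyme are detected, and the lists of blood cells, skeletal muscle and germ cells have medians of -4.44 or lower.

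Nephron progenitor genes were present at moderate levels. Of 18 genes 17 were detected, with a median of -1.29. Wt1 read 2.29, 1.48 and 1.82, Hoxa11 2.16, 2.42 and 2.55, Gdnf, the signal that draws the ureteric bud, 2.02, 0.89 and 0.63, Osr1 1.02, 0.81 and 0.77, and Six2, which keeps nephron progenitors undifferentiated, 0.45, 0.14 and 0.63. Pax2 was detected but low (-4.55 ± 0.50). Eya1 read 4.97, 4.44 and 4.32, but its only probe holds a repeat run found in 147 promoter sequences. The list of early nephron epithelium had a median of -4.42, with Wnt4 (0.42 ± 0.89) and Cdh6 (0.03 ± 0.31) at its head.

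Of the other lineages, those described in this paragraph had markers mostly at low levels, and not every list is described here. For the ureteric epithelium 12 of 20 were detected (60%, near the 60.4% of all genes), with a median of -3.53 and none in the top 10%. Wnt11 (0.85 ± 0.37) was its brightest member, whereas the adherens junction gene Cdh1 (-7.67, -5.27 and -5.21) and the GDNF receptor gene Ret (-7.27, -5.23 and -6.02) were at background in pool 1 and above it in pools 2 and 3. Without pool 1, 18 of the 20 were detected. The lowest level flagged well above background was -5.51 in pool 1, -6.14 in pool 2 and -6.30 in pool 3. The pools thus differed in their limit of detection, and the source of the change in count was not tested. For endothelium 8 of 14 were detected, led by Ramp2 (1.51 ± 0.11) and Egfl7 (0.88 ± 0.51), with Tek and Sox17 at background. Among leukocytes 6 of 15 were detected: Cd68 (-0.54 ± 0.06) and Csf1r (-1.14 ± 0.37) led, while Ptprc, which codes for the pan-leukocyte surface protein CD45, and Spi1, Lyz2, C1qa, C1qc, Mrc1 and Cx3cr1 were at background. For skeletal muscle 2 of 10 were detected, Actc1 and Tnnt1, and Myf5, Myog and Pax7 were at background. Of these 10, 7 were above the floor of the authors' deposited table. Of 8 germ cell genes 3 were detected, Kit (2.04 ± 0.24), Nanos3 (0.81 ± 0.14) and Dnd1 (-2.66 ± 0.31), while Dppa3, Dazl, Tfap2c and Pou5f1 were at background. Nanos3, an RNA-binding protein that protects germ cells, read 0.81, 0.95 and 0.66, below Kit in each pool.

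Genes of the smooth muscle list were detected unevenly. Of 11 genes 8 were detected, with the light chain gene Myl9 (3.82 ± 0.41), Smtn (2.41 ± 0.48), Tagln (2.32 ± 0.26) and Acta2 (1.10 ± 0.68) high. The smooth muscle myosin gene Myh11 (-6.84 ± 0.71), Myocd, the coactivator that switches on the contractile programme (-6.64 ± 1.27), and Lmod1 (-7.92 ± 0.35) were at background in every pool. The cartilage matrix genes Col2a1 (4.05, 3.73 and 3.91) and Col9a1 (3.14, 3.45 and 2.93) were bright, while others of the 14 cartilage genes were low or at background: Acan at -5.14 ± 0.54, and Pax9, Runx2 and Matn1 at background. The high value of Sox5 (5.22) in that list comes from a repeat-bearing probe, and its best other probe read -6.14. Of 8 pericyte genes 7 were detected. Notch3 (2.74 ± 0.41), Rgs5 (2.68 ± 0.29) and Pdgfrb (1.58 ± 0.32) were high, while Mcam read 3.92 with a repeat-bearing probe and -4.53 with its other probe, and Kcnj8 was at background.

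Erythroid genes were mostly highest in pool 3. The embryonic globin gene Hbb-y read 1.51, 2.36 and 3.95, the alpha-globin gene Hba-a1 0.82, 1.44 and 3.39, Hba-x -1.68, 0.59 and 1.08, and Hbb-bt -4.63, -3.39 and -1.35. Each was lowest in pool 1 and highest in pool 3, and 12 of the 15 erythroid genes were highest in pool 3, against 5457 of all 27299 genes. Both counts include genes not detected on all arrays, for which the order of the pools is less certain. The summed signal of the list was 5.27, 5.08 and 5.69 on the log2 scale, including Hemgn, which has a repeat-bearing probe and read 5.0, 4.53 and 4.38. Without Hemgn it was 2.71, 3.42 and 4.95. Rhag, a membrane protein of red blood cells, was at background in every pool. The part of red blood cells in other differences between the pools was not tested. Transcripts of both sexes were present in the pools of mixed sex: Xist stood at -0.80 ± 0.28, Ddx3y at -0.71 ± 0.40 and Eif2s3y at -0.56 ± 0.09. The other Y-linked genes of the list, Uty (-6.35 ± 0.84) and Kdm5d (-8.16 ± 0.38), were at background in every pool.

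Transcription factors were taken from a list of 653 genes in 12 families. Of these, 448 (68.6%) were detected and 137 were above background on no array, with a median level of -2.08 against -3.54 for all genes. Without probes of either feature 429 of 633 were detected. In 31 of the 448 the brightest probe had either feature. Among these, 6 (among them Sox5, Foxl2, Lhx6, Trp63 and Gcm1) had no other probe detected on all arrays, and 13 had no other probe. The families differed in how many members were detected: 40 of 44 leucine zipper genes and 35 of 39 Hox genes, 80 of 105 in the mixed group of other families, 75 of 97 zinc finger genes, 19 of 25 ETS genes, 56 of 86 basic helix-loop-helix genes, 15 of 23 SOX and TCF/LEF genes, 27 of 42 nuclear receptors, 24 of 42 forkhead genes, 63 of 112 other homeobox genes, 7 of 17 T-box genes and 7 of 21 paired and POU genes. No family was tested against another.

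With genes whose brightest probe had either feature set aside (Elk1, Creb5, Sox5 and Hmga1), among the brightest factors were the chromatin protein gene Hmga2 (6.57, 6.43 and 5.98), Id3 (6.44, 5.93 and 6.21), a partner of basic helix-loop-helix proteins that keeps them from DNA, Tead2 (6.01, 5.38 and 5.46), the DNA-binding partner of YAP, Meis1, Id2 (5.20, 5.30 and 5.38) and the orphan nuclear receptor gene Nr2f1 (5.34, 4.92 and 5.37). Then came the stress response factor Atf4 (5.01 ± 0.64), Sox4 (4.96 ± 0.29), Peg3, Meis2 (4.61 ± 0.39), Jund (4.57 ± 0.29), Nr2f2 (4.52 ± 0.48), Foxc2 (4.40 ± 0.09), Tcf21, Pbx3 (4.23 ± 0.57), Cbfb (4.22 ± 0.49), Plagl1 (4.19 ± 0.64), Snai2, Egr1 (4.04 ± 0.28), Nfib (3.95 ± 0.39) and Gata6 (3.94 ± 0.12). Of the 25 brightest factors by mean in this order, 19 were among the 25 brightest of every pool. Only 1 of the 24 neighbouring pairs differed by more than the larger SD of the pair, so most neighbours cannot be ordered. Hmga1 read 5.39, 4.62 and 4.18 with an A-rich probe, and -1.28, 1.21 and -2.22 with the better of its other probes.

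**Figure D3:**
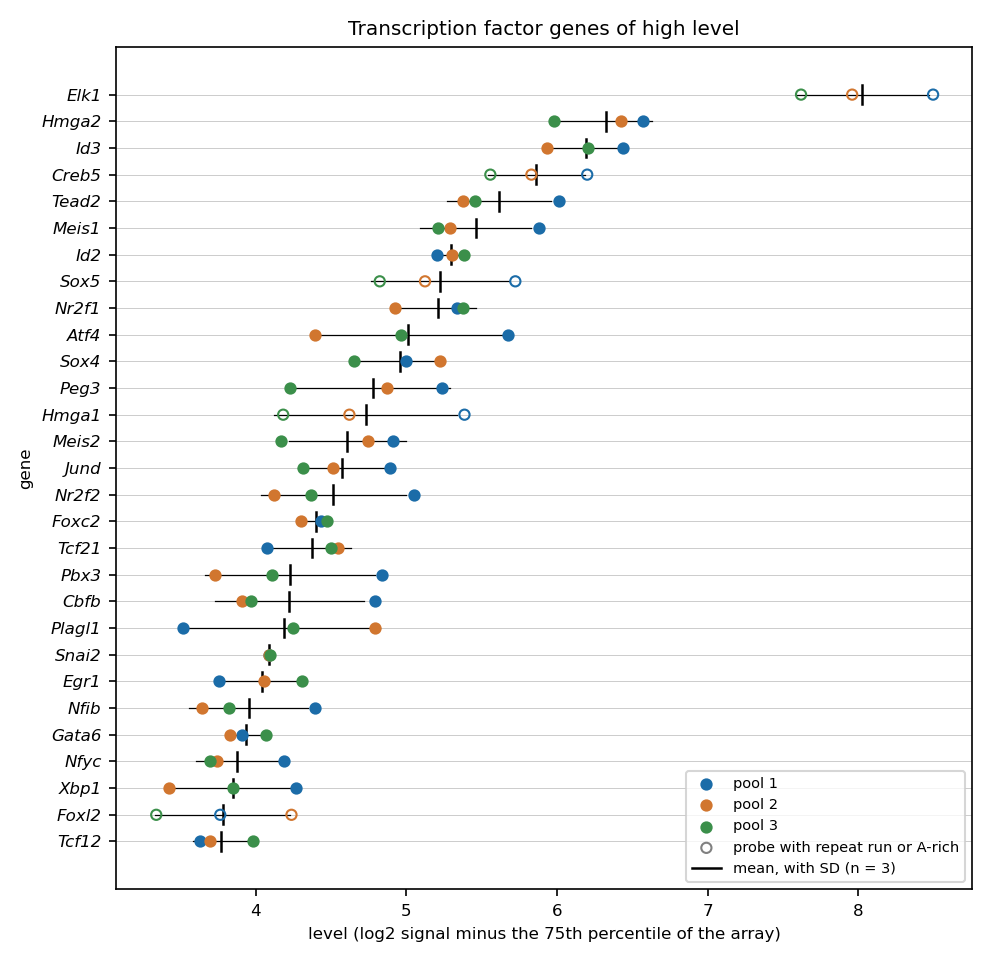
Level of 29 of the 30 transcription factor genes of highest mean level in each control pool (points), with the mean and SD over 3 pools (black bars); open points mark genes whose brightest probe has a repeat run or is A-rich. From Hmga2 at 6.33 down to Tcf12 at 3.77 most neighbouring genes overlap, and Elk1 stands apart at 8.03 with a repeat-bearing probe.

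Among forkhead genes Foxc2, Foxp4 (3.66 ± 0.26), Foxd1 and Foxc1 (2.68 ± 0.07) led once Foxl2 was set aside, and 13 members, among them Foxa1, Foxa2 and Foxd3 of endoderm and neural crest, were at background. Among Hox genes, which give cells their position along the body axis, Hoxd4 (3.03 ± 0.36), Hoxd10 (2.66 ± 0.09), Hoxd11 (2.52 ± 0.72, with an A-rich probe), Hoxa11 (2.38 ± 0.20) and Hoxa10 (2.27 ± 0.30) were brightest, Hoxd13 (0.95) and Hoxa13 (-1.41) were detected, and Hoxb13 and Hoxc13 were at background. Among T-box genes Tbx3 (1.81 ± 0.17) was above Tbx18, and Tbx4, Tbx5 and Tbx20 were at background. Among nuclear receptors the retinoic acid receptor genes Rarb (2.85 ± 0.21), Rara (1.48 ± 0.37) and Rarg (0.92 ± 0.57) were all detected. Of 19 immediate early and stress genes, which respond to many stimuli, 17 were detected. The heat-shock chaperone gene Hsp90aa1 (5.23 ± 0.38) was the brightest, and Jund, Egr1, Fosb (3.61 ± 0.40), Jun (3.28 ± 0.60), Nr4a1 (3.28 ± 0.30) and Fos (1.80, 4.08 and 3.96) were high. Other members were lower, such as Egr2 (-1.16 ± 0.43), Junb (-1.32 ± 1.22), Ier3 (-3.71 ± 0.57) and Hspa1a (-3.93 ± 0.11). Zfp36 and Egr3 were not detected on all arrays. Fos was more than 2 units lower in pool 1 than in the other pools.

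Of 18 genes of the retinoic acid pathway 15 were detected, with Aldh1a2, the retinoid-binding protein genes Crabp2 (5.76 ± 0.56) and Crabp1 (2.98 ± 0.04), the retinal reductase gene Dhrs3 (3.81 ± 0.53), the uptake receptor gene Stra6 (1.62 ± 0.40) and Rdh10 (1.41 ± 0.20) at or above 1.41. Of the 3 enzymes that degrade retinoic acid, Cyp26b1 was detected (-1.55 ± 0.44) and Cyp26a1 and Cyp26c1 were at background. Among 30 genes of the extracellular matrix 29 were detected, with Col1a2, Sparc (6.0 ± 0.34), Col3a1, Mfap2, Col1a1 (5.35 ± 0.18) and Fn1 (5.30 ± 0.28) at the head, although the only probe of Col1a1 and the brighter one of Mfap2 are A-rich. Elastin (Eln, -3.55 ± 0.53) was low, and tenascin C (Tnc, -6.14 ± 0.23) was the only member not detected on all arrays.

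Of 206 ligand genes 124 (60.2%) were detected, near the share of all genes, and 60 were above background on no array. Without probes of either feature 121 of 203 were detected. The growth factor midkine (Mdk, 7.21, 7.05 and 6.73) was the brightest, and the related pleiotrophin (Ptn) read 4.53, 4.73 and 4.53. Cxcl12, a chemokine of stroma, read 5.84, 5.49 and 5.49, and Bmp4 6.0, 5.08 and 5.26. Below them stood the ephrin gene Efnb1 (3.59 ± 0.44), Igf2 (3.19 ± 0.83), Tgfb2 (2.90 ± 0.54), Dlk1 (2.49 ± 0.52), Pgf (2.47 ± 0.23), Vegfc (2.40 ± 0.39), Pdgfc (2.27 ± 0.48), Efna4 (2.19 ± 0.33) and Sema6a (1.93 ± 0.96). Sema4c and Fgf23 also stood among the first 15, with repeat-bearing probes. Of the 15 brightest, 13 were among the 15 brightest of every pool.

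Of 168 receptor genes 125 (74.4%) were detected and 29 were above background on no array. Without probes of either feature 121 of 164 were detected. Gfra3, a GDNF family coreceptor for artemin, was the brightest (5.65, 4.50 and 4.63), and the next genes with neither feature included the hedgehog transducer gene Smo (5.05, 3.93 and 4.26), the WNT receptor gene Fzd2 (3.77, 3.91 and 3.60), Plxnb2 (3.48 ± 0.39), Igf2r (3.38 ± 0.23), Acvr2b (3.37 ± 0.51), Gas1 (3.36 ± 0.43), Fzd1 (3.35 ± 0.41), Unc5c (3.2 ± 0.45) and Lpar6 (3.09 ± 0.59). Ephb3, Epha5 and Ackr3 had repeat-bearing probes, and Fgfr1 read 2.94 with an A-rich probe and -0.28 with its best other probe. Only 1 of the 14 neighbouring pairs among the first 15 receptors differed by more than the larger SD, and 9 of the 15 stood among the first 15 of every pool. Secreted antagonists and modulators were detected for 28 of 36 (28 of 35 without probes of either feature), with Fstl1 (5.39 ± 0.41), Sfrp2, the BMP modulator gene Bmper (3.94 ± 0.17), Igfbp5 (2.74 ± 0.16), Sfrp1 (2.02 ± 0.04), Igfbp2 (1.64 ± 0.62), the WNT deacylase gene Notum (1.62 ± 0.66), Dkk1 (1.48 ± 0.07), Fst (1.02 ± 0.76) and Ltbp3 (0.86 ± 0.47) in this order.

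**Figure D4:**
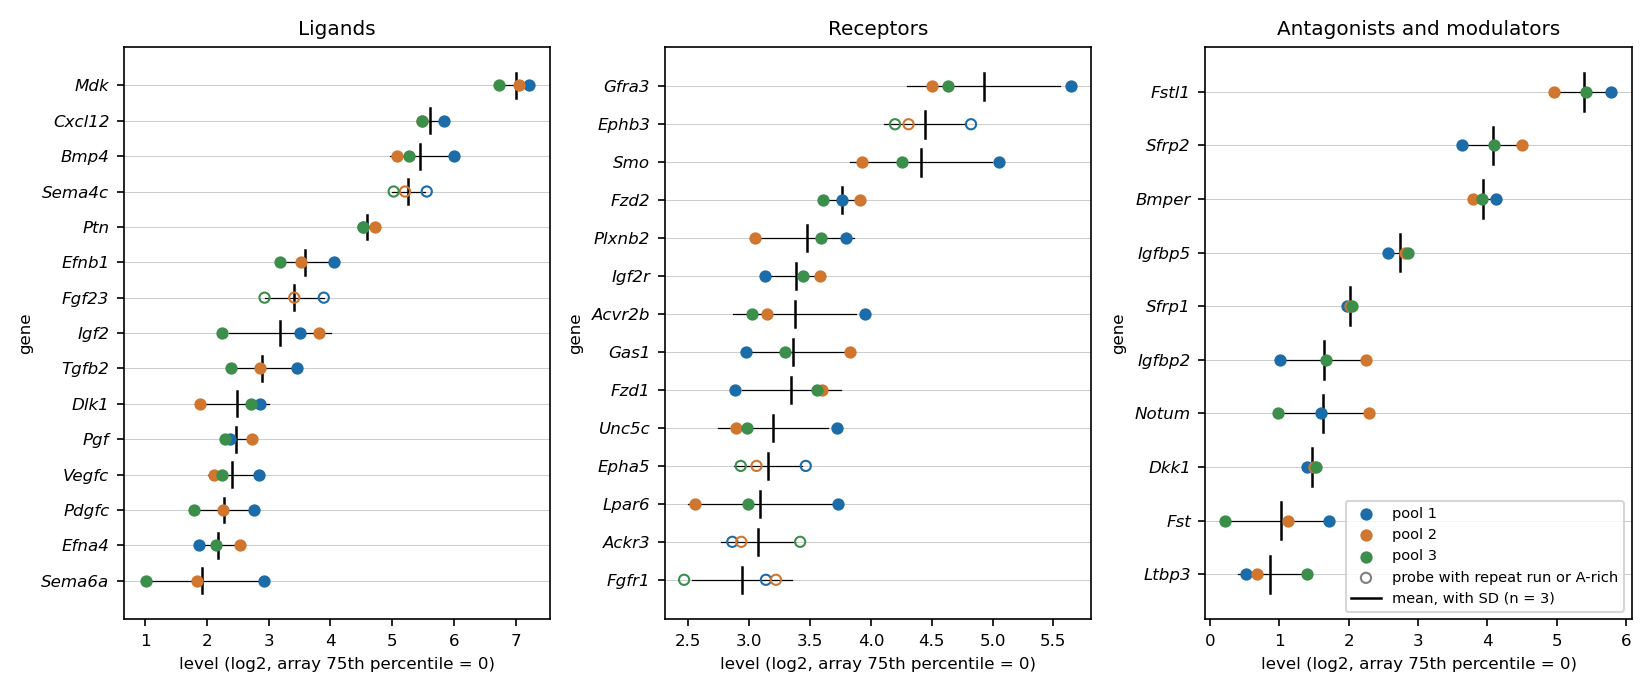
Levels of the 15 ligand, 14 of the 15 receptor and the 10 antagonist or modulator genes of highest mean level in each control pool (points), with the mean and SD over 3 pools; open points mark genes whose brightest probe has a repeat run or is A-rich. Mdk leads the ligands at 7.0, Gfra3 the receptors at 4.93 and Fstl1 the antagonists at 5.39, and in most rows the pools overlap those of the neighbouring genes.

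All 3 hedgehog ligand genes, Shh, Ihh and Dhh, were at background in every pool, with Shh at -7.79, -8.04 and -8.46, while all 6 genes of hedgehog receptors and coreceptors were detected. The value of the coreceptor gene Boc (-0.59) comes from a repeat-bearing probe. Shh is known to be made by the ureteric epithelium. In the GDNF family, Gdnf and Nrtn (-0.12 ± 0.27) were detected, while Gfra1 stood at -4.41 ± 0.20 and Ret, its partner in receiving GDNF, was above background in 2 pools only. Of the PDGF, VEGF and angiopoietin group 11 of 12 ligands were detected but 3 of 7 receptors, Pdgfra (2.70 ± 0.39), Pdgfrb and the VEGF receptor gene Kdr (0.01 ± 0.48), and the endothelial receptor genes Tek and Flt4 were at background. Of cytokines and chemokines 9 of 25 ligands and 7 of 18 receptors were detected, and Cxcr4, the receptor of Cxcl12, was above background in 2 pools only (-7.73, -5.03 and -5.87). For WNT 14 of 24 ligands were detected, led by Wnt5b (1.85 ± 0.57) and Ndp (0.94 ± 0.36), and 17 of 21 receptors, and 10 ligands including Wnt2, Wnt3 and Wnt7b were at background. For FGF 10 of 22 ligands and 5 of 5 receptors were detected. Apart from Fgf23, the brightest FGF ligand gene was Fgf17 (-1.44 ± 0.33), and Fgf10 stood at -2.17 ± 0.53.

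The 3 pools gave similar levels for most genes. Among genes detected on all arrays the median SD was 0.361, and the pools lay within 1 unit of each other for 76.2% of them. Across the 22778 detected probes, which are not independent, Pearson's r was 0.969 between pools 1 and 2, 0.969 between pools 1 and 3 and 0.981 between pools 2 and 3. Pool 1 stood somewhat apart: leaving out each pool in turn gave a median SD of 0.237 to 0.345, and the lowest value was that without pool 1. These values rest on fewer pools than the 0.361 and are not set against it.

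The genes that differed most between the pools had A-rich probes. Of the 100 detected probes of largest SD, 81 were A-rich, against 1.84% of all detected probes, and all 81 were lowest in pool 1, intermediate in pool 2 and highest in pool 3. The 10 named genes of largest SD were Mypn, AA408650, Aknad1, Enox1, Rims3, Mycl, Enpp1, Elobl, Cacna1a and Skint4, and the brightest probe of each was A-rich. Mypn, a protein of the muscle sarcomere, read -2.96, 2.66 and 4.0, and Mycl of the MYC family -2.95, 2.44 and 3.71. The pools moved apart with the number of A in the densest 12 bases. Detected probes with 9 A had medians of -0.69, -0.61 and -0.63 in the 3 pools, those with 10 A (385 probes) medians of -1.05, -0.33 and 0.35, and those with 11 A (34 probes) medians of -1.13, 1.67 and 2.71. Not every A-rich probe had this order: it held for 208 of the 419 detected ones, and not for those of Col1a1 (5.15, 5.50 and 5.41) and Hmga1.

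In 156 genes an A-rich and another probe were both detected. There, pool 3 minus pool 1 was a median of 0.32 with the A-rich probe and -0.30 with the others, and it was larger with the A-rich probe in 113. Tcf7l2, a TCF factor of WNT signalling, read -4.37, -0.05 and 1.34 with the A-rich probe shown above but -1.64, -0.27 and -2.28, and -1.85, -2.31 and -4.30, with its other probes. Esrrg, an orphan nuclear receptor gene, read -4.49, -1.49 and 0.24 with the A-rich probe and -3.83, -3.48 and -3.77 with the other. Between pools 1 and 2 alone, the A-rich probe of Tcf7l2 read -4.37 against -0.05, and the source of the differences between the pools was not tested. What the A-rich probes bound was not tested.

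**Figure D5:**
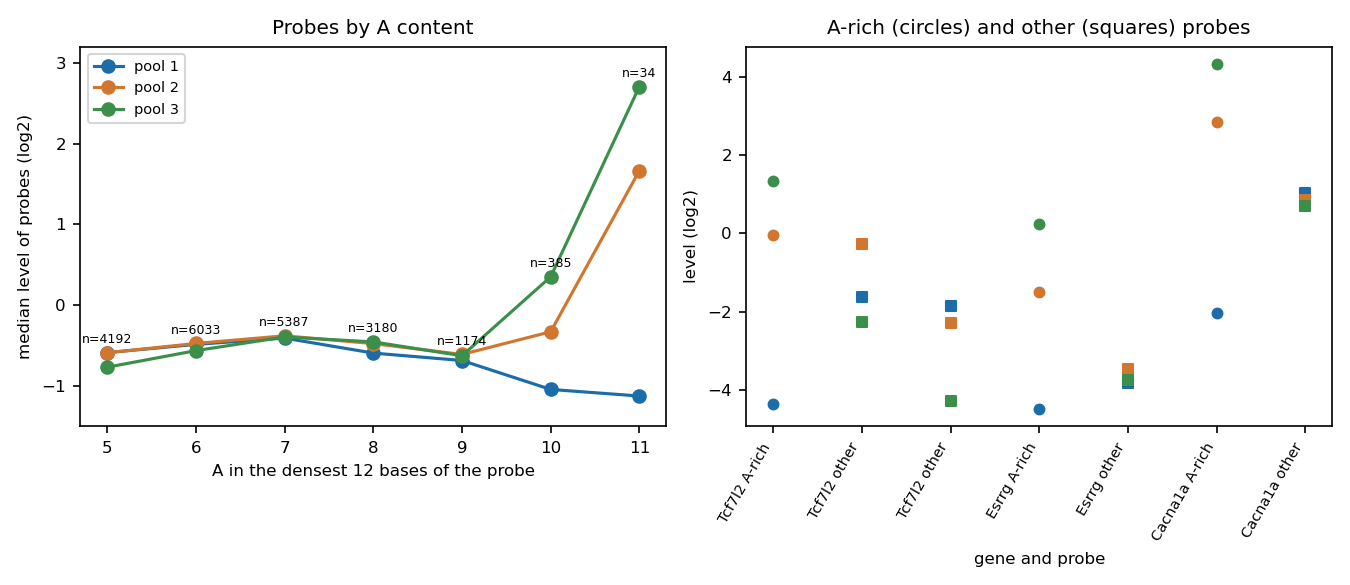
Left, median level (log2) in each control pool of detected probes grouped by the number of A in their densest 12 bases, with the number of probes; right, levels in each pool of the A-rich probe (circles) and other probes (squares) of 3 genes, coloured by pool as on the left. The pools lie together up to 9 A and separate at 10 and 11 A, with medians of -1.13, 1.67 and 2.71 at 11 A, and for Tcf7l2, Esrrg and Cacna1a the A-rich probe is lowest in pool 1 and highest in pool 3.

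With probes of either feature left out, other genes had the largest SD. Hoxa6 read -0.10, -2.54 and -4.32 and was detected in each pool. Zfp62 had the same order (-0.18, -1.56 and -3.66), and the mitochondrial gene ND1 the opposite one (3.80, 6.15 and 6.75), as Sox9, Hbb-bt and Hba-x above. A second pattern was a high value in pool 2 alone: Prkaca read -2.45, 0.04 and -3.03, Bcl9 -2.57, -0.09 and -3.12, and Trp53 -0.42, 1.89 and -0.61. Twist1, a factor of mesenchyme, was low in pool 1 (0.18, 2.88 and 2.23), as was Cdh11 (-0.16, 1.96 and 2.24). Across detected probes, pool 3 minus pool 1 was lower in probes of higher GC content (Pearson's r -0.33 over 22778 probes, which share the 3 libraries), and for the mean level r was -0.04. Each of these genes was chosen for its spread, and with 1 array per pool cells, amplification and array cannot be told apart as its source.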

How the data were processed

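RNA of 3 pools of sorted control cells was hybridised to Agilent 1-colour arrays with 39429 probes, each spotted 4 times. Per the file headers, the authors extracted spot intensity with Agilent Feature Extraction 10.7.3.1, which subtracts background and marks outlier, saturated and dim spots. A further table deposited by the authors holds normalised intensity values with a floor of 10, identical in distribution between arrays, and served as an alternative. From the deposited intensity, outlier spots (1.86% to 2.19%) were dropped, the other spots of a probe averaged, and the log2 of this mean lowered by the log2 of the array's 75th percentile (976, 1356 and 1757). No spot was saturated. A probe was well above background where most of its kept spots were flagged so, which held for 23401, 24973 and 24749 probes. Genes were named through RefSeq accessions (27592 probes), symbols (3492) or synonyms (393), otherwise by the name in the file (5113), and 2839 probes stayed unnamed.

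The text names Tbx18, the 25 brightest genes, the 25 brightest transcription factors, 15 ligands, 15 receptors and 10 antagonists, up to 5 leading members and undetected members of each list, the 10 genes of largest SD and up to 12 list members of largest SD, leaving out clone-like names. Members and lists were chosen with earlier results of these data known. Further genes were named to illustrate the sequence features, after their values were seen. Limma 3.58.1 in R 4.3.3 gave quantile normalisation and the normexp background (offset 50), and Python 3.11.15 the rest. The averaging and scaling were tested on simulated data. Alternatives also changed the detection rule, the spots kept, the probe of a gene and the pools, and left out repeat-bearing and A-rich probes, which was chosen after seeing the data. Probe positions are mm9, as in the files. The number of arrays limits the precision. A few genes that these rules name are not reported here.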

Additional observations from a re-analysis of the deposited data

How the results depend on the processing

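The median SD between pools was 0.237 without pool 1, and leaving out each pool in turn gave 0.237 to 0.345. In the authors' table, counting genes above its floor, 7 skeletal muscle markers and 9 mesothelium markers were detected in place of 2 and 5, and with detection on at least 2 of 3 arrays 8 mesothelium markers were. With the mean of a gene's probes in place of the brightest, 63 of the 100 brightest genes, clone-like names included, remained among the 100 brightest. Without repeat-bearing and A-rich probes, an alternative chosen after seeing the data, 84 remained, and 86 of 100 when clone-like names are left out. The cause of these shifts was not tested beyond what each alternative changes. Of 199 named levels, 60 moved by more than their SD with the mean of probes, 24 with the normexp background, 3 in the authors' table, 2 with outlier spots kept and 1 with quantile normalisation. Without repeat-bearing and A-rich probes 189 of these had a value, of which 18 moved by more than their SD and 11, among them Elk1, Sox5 and Epha5, went from above the array's 75th percentile to below it. With the mean of probes 15 changed sides. Tbx18 ranged from 0.51 to 1.12 when each pool was left out. A 75th percentile over all non-control probes uses the same probes as the values above and gave no separate setting, and without a filter no count of detected genes exists. No paired analysis was possible because 1 group was analysed. Signals near background give only an upper limit on a level.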

Other observations

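A family of 6 probes that share runs of 16 bases with one another, 5 of them on mm9 chromosome 9 and 1 on chromosome 2, was lowest in pool 3 in every case. The chromosome 2 probe read 0.70, -0.43 and -5.24 in pools 1, 2 and 3, and the brightest chromosome 9 probe 0.67, -0.38 and -5.17. Another chromosome 9 probe read 0.14, -1.02 and -8.40 and was above background in 2 pools only. The family was built outward from the probe of largest pool 1 minus pool 3 value among probes above background in pool 1. The direction of that probe was therefore set by the choice, and the others were added for their shared runs. The cause was not tested.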
